A study of Mus musculus with 6 samples.

Results

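Heat shock proteins and their partner chaperones were compared between deprived and non-deprived visual cortex of adult mice. The members were the genes whose platform symbol belongs to the Hspa, Hspb, Hspd, Hspe, Hsph, Hsp90, Dnaja, Dnajb, Dnajc, Cct, Tcp1, Hsf or Bag groups. They numbered 62 genes on 91 probe sets, out of 8251 genes that the platform annotation names by 1 symbol. Each gene was represented by the brightest of its probe sets (highest mean signal over all 6 arrays). The text gives the other probe sets for some genes only, and those left out may differ from the brightest. For genes with several tested probe sets, all tested ones are plotted below. Of the 62 genes, 53 passed the filter on dim probe sets and were tested.

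All mice were wild type (C57Bl6), lost one eye in adulthood (P100, counted in days from birth) and were killed 4 days later (P104). The 3 deprived arrays hold visual cortex contralateral to the removed eye, the hemisphere that lost most of its input. The 3 non-deprived arrays hold visual cortex ipsilateral to the removed eye, so this hemisphere also comes from operated animals. The labels speak of 4 mice and of pooled samples. They do not say how many animals a pool held, if each array had its own pool or if both hemispheres of an animal were used. The p-values therefore rest on the scatter among these 6 samples alone, part or all of which may be technical. Tissue was cut from coronal slices and holds all cell types of the cortex, so fewer cells of a type and less RNA per cell cannot be told apart.

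Chaperones bind unfolded or partly folded proteins and keep them from clumping until they fold, are refolded or are handed on for degradation. Hsp70 proteins do this in cycles of ATP binding and hydrolysis, which J-domain proteins (Hsp40) start and Bag proteins and Hsp110 proteins advance by exchanging the nucleotide. Hsp90 completes the folding of kinases and steroid receptors, the chaperonin rings fold actin, tubulin and mitochondrial proteins inside a chamber, and small heat shock proteins hold unfolded clients without using ATP. Heat shock factors switch on the inducible members when unfolded proteins build up. In neurons, the constitutive members also serve synaptic vesicle traffic.

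None of the 53 tested chaperone genes passed the test for a difference between deprived and non-deprived cortex (limma, adjusted over all 7453 tested probe sets, smallest adjusted p = 0.725). The same test called 13 probe sets in the whole table, 0.174% of those tested. At an unadjusted p under 0.05 there were 4 chaperone genes, Dnajb5, Dnajb13 and Dnajc7 with lower and Dnajc9 with higher signal in deprived cortex. That is 7.55% of the 53, beside 5.18% of all tested genes. Dnajb5, which also gave the smallest adjusted p, was tested only through the arrays where it was high, as described below. Neither the count nor the share is therefore support for a difference. Of the 53, 32 had a lower and 21 a higher mean log2 signal in deprived arrays, that is 60.4% lower, beside 47.4% of all tested genes. The 32 include Dnajb5 and Dnajc11, both tested only through the non-deprived arrays, where they were higher, so this share is no support for a difference either. The median of their log2 changes (deprived minus non-deprived) was -0.03, beside 0.01 over all 5653 tested genes. For comparison, Fos, an activity-induced transcription factor, read 758, 602 and 749 signal units on the deprived arrays and 2837, 2784 and 3217 on the non-deprived arrays.

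Intervals were computed from the scatter among these 6 arrays and do not cover differences between animals beyond it. The 95% interval of the log2 change lay within a 2-fold change in either direction for 50 of the 53 tested chaperone genes (94.3%), and for 87.4% of all tested genes. It lay within a 1.5-fold change for 35 of the 53 (66.0%), and for 56.5% of all tested genes. The 3 whose interval reached a 2-fold change were the J-domain genes Dnajb5, Dnajb13 and Dnajc11.

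**Figure D1:**
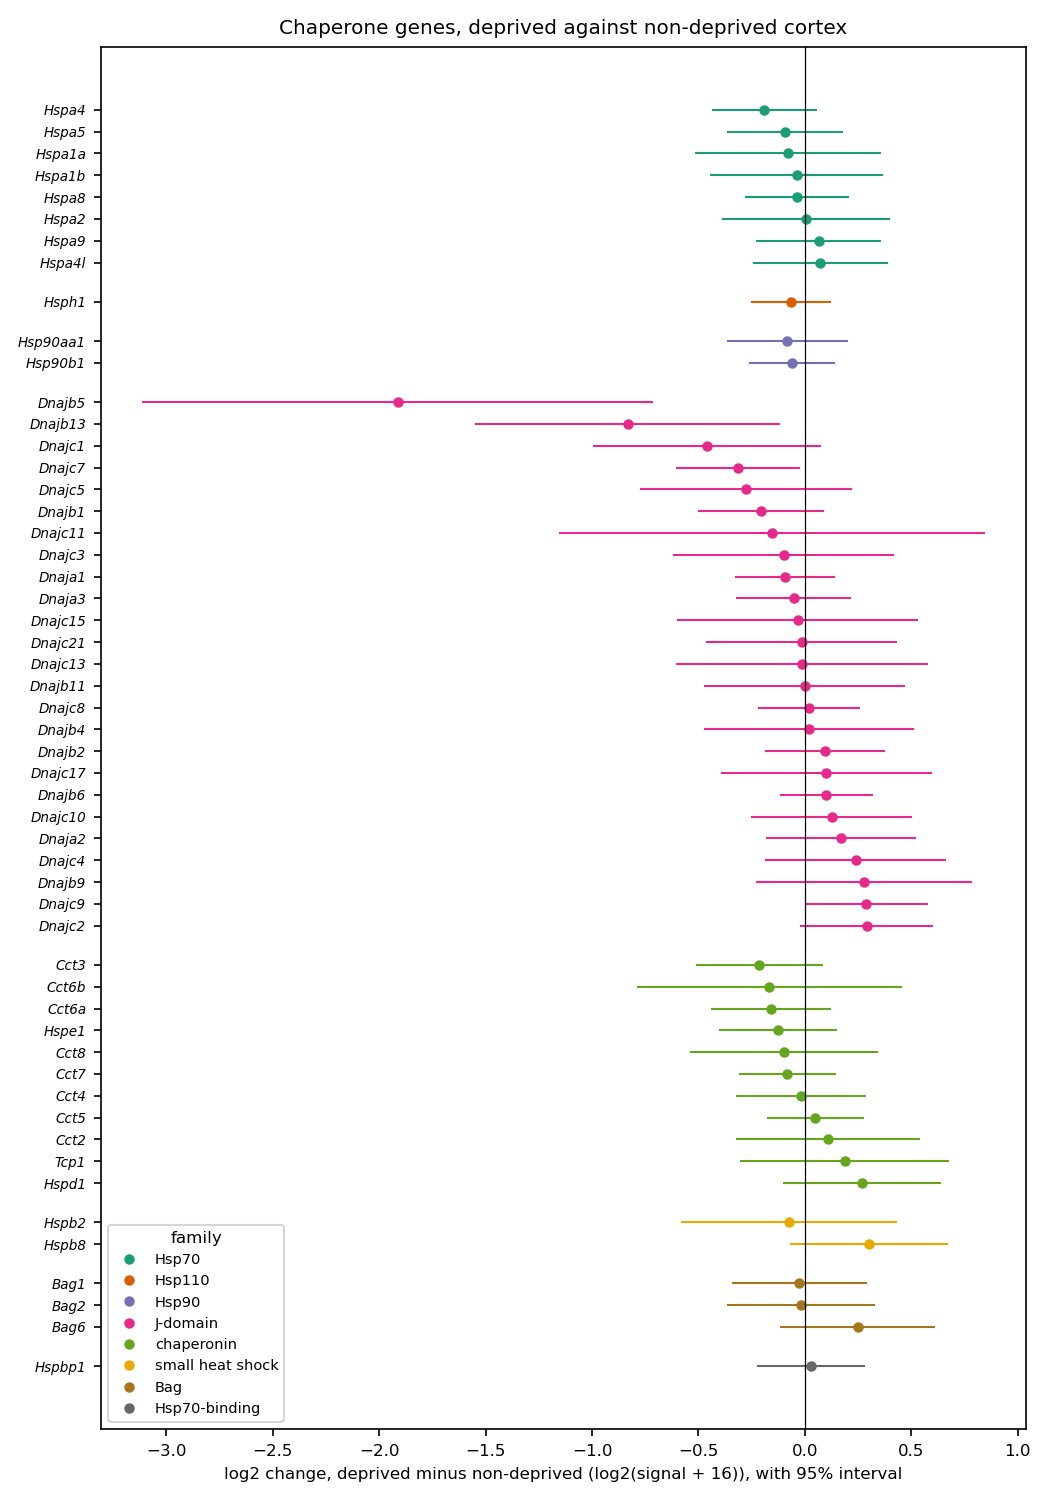
Log2 change (deprived minus non-deprived, on log2(signal + 16)) of the 53 tested chaperone genes, 1 row per gene, grouped by family from Hsp70 at the top to Hspbp1 at the bottom; points are estimates over 3 arrays per group and lines are 95% intervals from limma. Of the 53 intervals, 35 lie within a 1.5-fold change, and Dnajb5, at -1.91, stands farthest from 0.

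**Figure D2:**
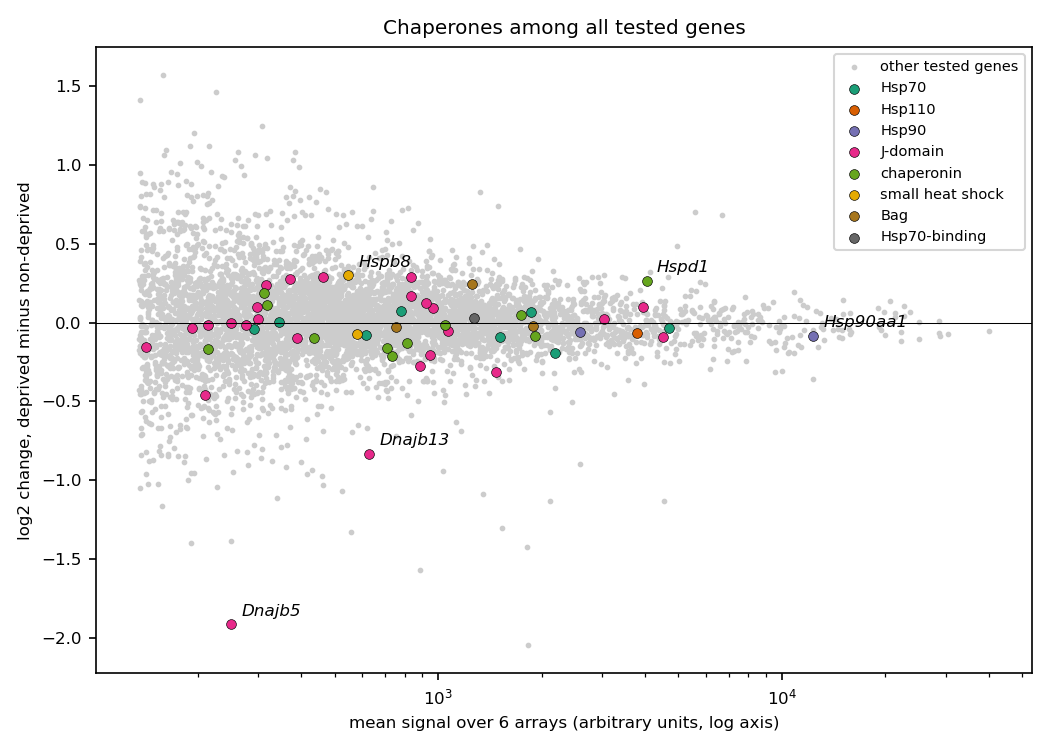
Log2 change (deprived minus non-deprived) against mean signal over all 6 arrays (log axis) for the tested genes, chaperones in colour by family and the other tested genes in grey. Dnajb5 and Dnajb13 lie below the cloud of chaperones, which otherwise spans log2 changes of -0.46 to 0.30.

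The inducible members carry heat shock elements, inverted repeats of the unit GAA (TTC on the other strand) that heat shock factors bind. RefSeq promoter windows (GRCm38.p6, 250 bases before to 50 after a gene's start) were found by symbol for 53 of the 62 genes. They were searched for a pair of units, GAANNTTC or TTCNNGAA, and for a run of 3 units, which is GAANNTTC with NNGAA after it or TTCNNGAA with NNTTC after it. Each pair is its own reverse complement, the first run is the reverse complement of the second, and each run contains 2 pairs, so both strands were covered. A run was in a window of 4 of the 53 chaperone genes (7.55%) and of 0.662% of all 27025 genes in the table. A pair was in a window of 15 of the 53 (28.3%) and of 17.0% of all genes. These matches are a description of letters and not of binding. The windows below are shown because they hold the runs, or because they belong to the classic inducible Hsp70 genes. Capitals mark every base that belongs to a matched pair, and pairs that overlap form one stretch of capitals.
Hspe1 (chr1:55087898-55088197, strand +): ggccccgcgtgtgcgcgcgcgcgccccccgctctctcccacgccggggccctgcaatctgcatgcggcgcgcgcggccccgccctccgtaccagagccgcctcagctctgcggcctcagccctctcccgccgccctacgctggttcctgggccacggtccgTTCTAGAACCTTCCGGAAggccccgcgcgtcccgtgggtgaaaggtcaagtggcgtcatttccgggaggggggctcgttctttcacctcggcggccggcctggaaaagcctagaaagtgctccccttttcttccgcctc
Hsph1 (chr5:149636287-149636586, strand -): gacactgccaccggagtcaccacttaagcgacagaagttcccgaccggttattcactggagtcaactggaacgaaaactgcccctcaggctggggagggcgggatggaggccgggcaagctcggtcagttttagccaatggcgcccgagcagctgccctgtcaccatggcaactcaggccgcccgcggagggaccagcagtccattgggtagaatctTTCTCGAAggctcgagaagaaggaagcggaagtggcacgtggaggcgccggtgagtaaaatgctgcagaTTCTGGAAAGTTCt
Dnajb6 (chr5:29735648-29735947, strand +): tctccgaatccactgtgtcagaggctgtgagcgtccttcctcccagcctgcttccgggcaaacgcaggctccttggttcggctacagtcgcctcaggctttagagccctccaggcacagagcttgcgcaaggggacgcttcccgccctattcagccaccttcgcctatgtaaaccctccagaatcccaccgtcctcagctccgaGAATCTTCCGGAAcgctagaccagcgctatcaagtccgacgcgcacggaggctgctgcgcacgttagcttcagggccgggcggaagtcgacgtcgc
Hspa1a (chr17:34972107-34972406, strand -): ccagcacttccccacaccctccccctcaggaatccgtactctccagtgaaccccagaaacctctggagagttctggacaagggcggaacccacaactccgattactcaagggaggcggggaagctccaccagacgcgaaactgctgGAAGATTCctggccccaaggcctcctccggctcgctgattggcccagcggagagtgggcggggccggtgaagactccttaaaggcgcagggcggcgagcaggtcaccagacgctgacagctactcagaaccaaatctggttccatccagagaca
Hspa1b (chr17:34959189-34959488, strand -): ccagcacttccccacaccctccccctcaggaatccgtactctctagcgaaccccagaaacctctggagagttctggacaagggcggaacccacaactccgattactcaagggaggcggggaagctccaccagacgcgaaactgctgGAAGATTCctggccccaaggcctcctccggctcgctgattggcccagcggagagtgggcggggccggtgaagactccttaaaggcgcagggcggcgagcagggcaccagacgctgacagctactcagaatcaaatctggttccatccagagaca

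Hspe1 and Hspd1 lie head to head, and 285 of the 300 bases of the Hspe1 window are also in a window of Hspd1, read on the other strand, so both genes share the one stretch of capitals. The Hsph1 and Dnajb6 runs also fall in a second, overlapping window of each gene, which is not printed. The windows of Hspa1a and Hspa1b, which encode near-identical proteins, carry the same base at 296 of 300 positions (98.7%), and each holds a pair but no run. The 4 genes with a run, Hspe1, Hspd1, Hsph1 and Dnajb6, were all tested, and 2 were lower and 2 higher in deprived arrays. The 13 tested genes with a pair had a median log2 change of 0.02 (6 lower, 7 higher), and the 32 tested genes with a window but no pair had -0.02 (20 lower, 12 higher). Genes with and without these letters thus had medians close to 0.

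**Figure D3:**
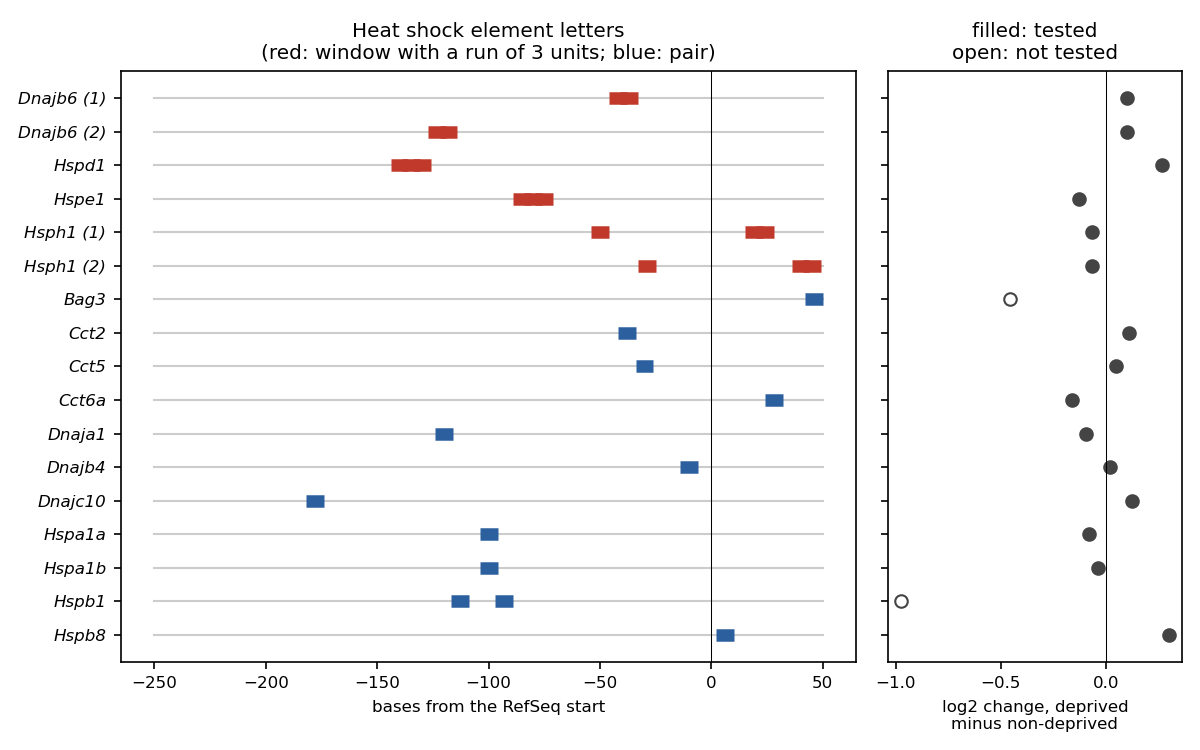
Left, positions of heat shock element letters from the RefSeq start (bases, 250 before to 50 after) in the windows of 15 chaperone genes, with windows holding a run of 3 units in red and those holding pairs alone in blue; numbers in brackets tell apart several matching windows of a gene. Right, the log2 change (deprived minus non-deprived) of the same genes, filled if tested and open if the signal was too dim; the 2 open points, Bag3 and Hspb1, lie farthest to the left.

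Hsp70 genes encode the central ATP-driven chaperones, and 8 of the 10 on the array were tested. Of these 5 were lower and 3 higher in deprived arrays (median log2 change -0.04) with a range of -0.19 to 0.07, and 0 had an unadjusted p under 0.05. The 95% interval of each of the 8 lay within a 1.5-fold change. Hspa1a, the classic stress-inducible Hsp70, read 744, 444 and 630.2 signal units on the 3 deprived arrays and 672, 549.6 and 668 on the 3 non-deprived arrays (replicates 1, 2 and 3). Its log2 change was -0.08 (SE 0.19, 95% interval -0.51 to 0.35). The arrays of both groups overlapped, and deprived replicate 2 was the lowest of the 6. Hspa1b read 256, 306 and 303 on the deprived and 308, 282 and 297 on the non-deprived arrays (log2 change -0.04, SE 0.18). The coding sequences of Hspa1a and Hspa1b are near-identical, and whether these probe sets tell them apart was not tested, so their values are uncertain as measures of either gene.

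Hspa8 encodes the constitutive Hsc70, which also strips clathrin from vesicles at synapses. It read 5059.7, 4459.7 and 4398 on the deprived and 4607, 5471 and 4246 on the non-deprived arrays, with a log2 change of -0.04 (95% interval -0.28 to 0.20). The highest and the lowest of its 6 values were both from non-deprived cortex. Hspa5 encodes BiP, the Hsp70 of the endoplasmic reticulum, and read 1499, 1299.7 and 1584 against 1519.6, 1424 and 1729 (deprived against non-deprived, log2 change -0.09, SE 0.12). Hspa9, the mitochondrial Hsp70, had a log2 change of 0.06 (SE 0.13). Hspa2, best known from germ cells, had 0.01 (SE 0.17).

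Hspa4 and Hspa4l encode relatives of Hsp110 that act as nucleotide exchange factors. Hspa4 had the smallest p of the family, with 1872, 2096 and 2176 on the deprived and 2527, 2083 and 2421 on the non-deprived arrays (log2 change -0.19, SE 0.11, adjusted p = 0.967). The groups overlapped, with non-deprived replicate 2 inside the deprived range. Of its 3 other tested probe sets, 2 had the opposite sign (0.25, SE 0.21, and 0.27, SE 0.35) and 1 the same (-0.14, SE 0.31). Hspa4l read 716, 909 and 782 on the deprived and 682, 835 and 768 on the non-deprived arrays (log2 change 0.07, SE 0.14).

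Hsph1 encodes Hsp110 itself, which exchanges the nucleotide of Hsp70 and helps to take apart protein aggregates. It read 3638, 3605 and 3856 on the deprived and 4077, 3664 and 3874 on the non-deprived arrays, with a log2 change of -0.06 (95% interval -0.25 to 0.12). The 6 values lay close together, the highest being 1.13 times the lowest, and the groups overlapped. The median of this ratio was 1.42 over the tested chaperones and 1.48 over all tested genes.

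Hsp90aa1 encodes the inducible cytosolic Hsp90. It read 11184, 11671 and 12982 on the deprived and 13850.2, 10154 and 14316 on the non-deprived arrays (log2 change -0.08, SE 0.12). The non-deprived arrays spanned the deprived ones on both sides. Hsp90b1 encodes Grp94, the Hsp90 of the endoplasmic reticulum, and had the narrowest spread of the 53, its highest value being 1.12 times its lowest. It read 2422, 2467 and 2712 on the deprived and 2574, 2703 and 2639 on the non-deprived arrays (log2 change -0.06, 95% interval -0.26 to 0.14).

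**Figure D4:**
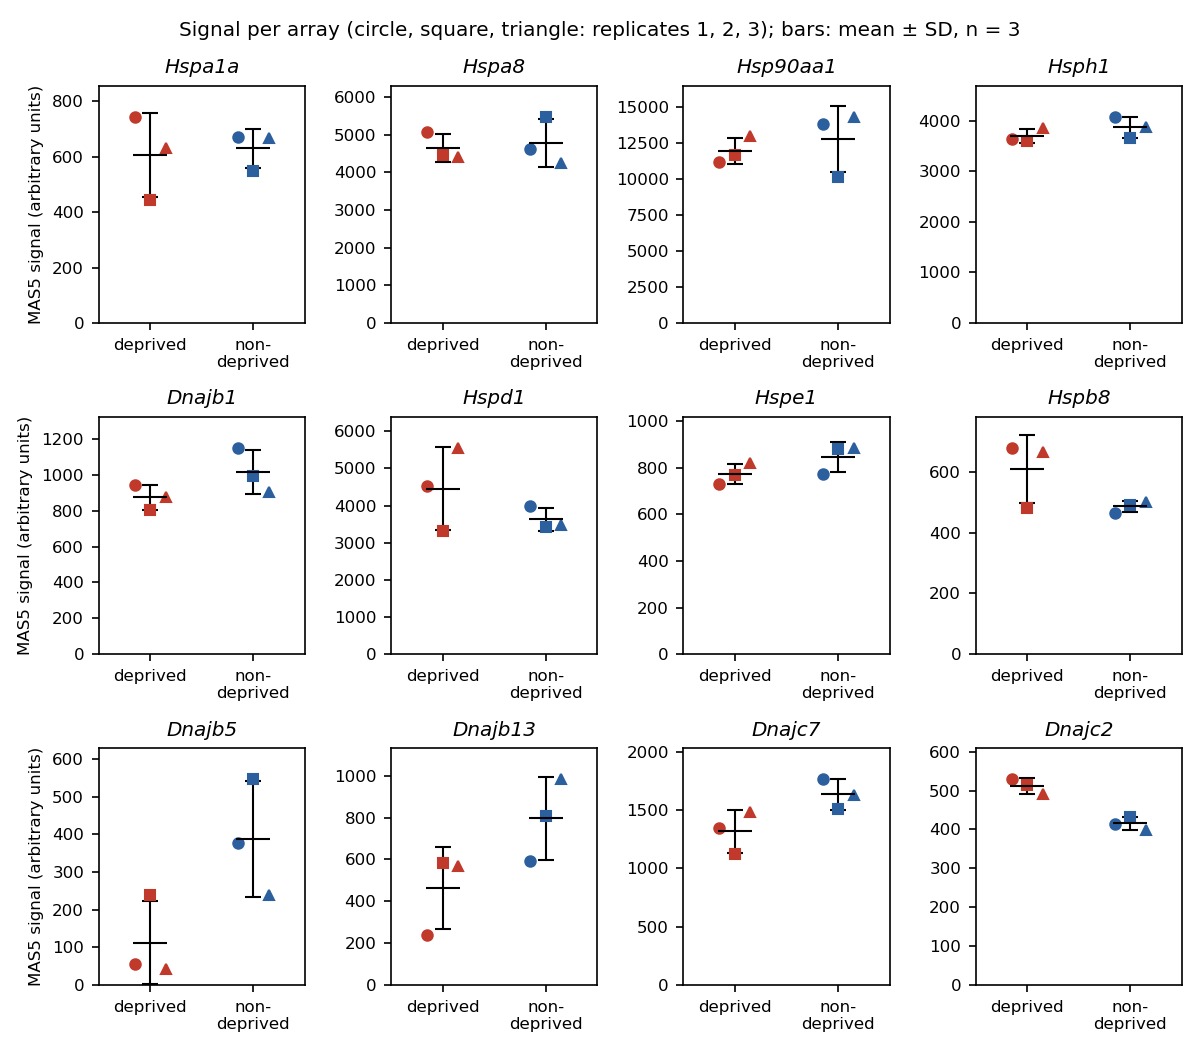
MAS5 signal (arbitrary units, axes from 0) of 12 chaperone genes on each array, deprived left in red and non-deprived right in blue; circles, squares and triangles are replicates 1, 2 and 3, and bars are mean ± SD (n = 3 per group). The groups overlap for the first 9 panels, and do not for Dnajb13, Dnajc7 and Dnajc2.

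J-domain proteins bring clients to Hsp70 and trigger its ATPase. With 27 genes, of which 25 were tested, they were the largest family, and they held all 4 chaperone genes with an unadjusted p under 0.05 (limma). That is 16% of the 25, beside 5.18% of all tested genes. Dnajb5, 1 of the 4, was tested only through the arrays where it was high, so this share is no support for a difference. Of the 25, 14 were lower and 11 higher in deprived arrays (median log2 change -0.01), over a range of -1.91 to 0.29. By class, the medians were -0.05 for the 3 Dnaja genes, 0.01 for the 8 tested Dnajb genes and -0.01 for the 14 Dnajc genes.

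Dnajb5 encodes a cytosolic class B protein related to Dnajb1. It read 55.6, 240.3 and 41.8 on the deprived and 378, 547 and 239.6 on the non-deprived arrays. Deprived replicates 1 and 3 were the lowest of the 6, and deprived replicate 2 stood level with non-deprived replicate 3, so the groups touched. The deprived mean of 113 lies under 134.7, the lowest mean signal that the filter let through, against a non-deprived mean of 388, so Dnajb5 was tested only through the arrays where it was high. The deprived values 55.6 and 41.8 are not shown to exceed background. The fitted log2 change of -1.91 (SE 0.53, 95% interval -3.11 to -0.72, adjusted p = 0.725) is therefore given as a description, and its size is uncertain. It did not pass in any of the 6 fits without 1 array (adjusted p 0.0689 to 0.999).

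Dnajb13, best known from the flagella of sperm and from motile cilia, read 238, 583 and 569 on the deprived and 592, 809.6 and 985 on the non-deprived arrays. The groups did not overlap, though deprived replicate 2 came within 10 units of non-deprived replicate 1, and deprived replicate 1 was far below the rest. The log2 change was -0.83 (SE 0.32, adjusted p = 0.95) and -0.43 without deprived replicate 1. A dimmer, untested probe set of Dnajb13, averaging 118 units, stood on the other side of 0 at 0.79.

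Dnajc7 encodes a cochaperone with repeats that bind both Hsp70 and Hsp90. It read 1343, 1122 and 1488 on the deprived and 1768, 1509 and 1627 on the non-deprived arrays, which did not overlap (log2 change -0.31, SE 0.13, adjusted p = 0.95). Dnajc9, a cochaperone that binds histones, had the smallest p among the genes with higher signal. It read 872, 997 and 886 on the deprived and 814, 673 and 764 on the non-deprived arrays, also without overlap (log2 change 0.29, SE 0.13, adjusted p = 0.95). Dnajc2, a J-domain protein of the ribosome, read 530.1, 515 and 490.4 against 414, 433 and 399.9 (deprived against non-deprived, log2 change 0.29, SE 0.14), while its dimmer probe set had 0.08 (SE 0.18). Dnajc1, a membrane protein of the endoplasmic reticulum, read 155, 174 and 192 on the deprived and 202, 259 and 280.1 on the non-deprived arrays (log2 change -0.46, SE 0.24). Dnajc9, Dnajc2 and Dnajc1 are named after their values were seen.

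Without overlap of the groups, 5 of the 53 tested chaperones were lower in deprived arrays (9.43%, beside 4.67% of all tested genes) and 2 were higher (3.77%, beside 5.77%). The lower ones were Dnajb13, Dnajc1, Dnajc7, Cct3 and Cct6a, and the higher ones Dnajc9 and Dnajc2.

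Dnajb1 encodes the main inducible Hsp40, the partner of Hspa1a in the heat shock response. It read 945, 806 and 880.1 on the deprived and 1152, 997 and 905 on the non-deprived arrays (log2 change -0.21, SE 0.13, adjusted p = 0.967). Non-deprived replicate 3 lay inside the deprived range. Dnaja1, its class A counterpart, had a log2 change of -0.09 (SE 0.10), and Dnajb6, which holds back aggregates of polyglutamine proteins, 0.10 (SE 0.10). Dnajc5 encodes the cysteine string protein of synaptic vesicles, which with Hsc70 keeps the release protein SNAP-25 folded. Its log2 change was -0.27 (SE 0.22, 95% interval -0.77 to 0.22).

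Several J-domain proteins work in the endoplasmic reticulum with BiP. Dnajb9 had a log2 change of 0.28 (SE 0.22) and nearly the same on its other probe set (0.29, SE 0.25). Dnajb11 had 0.00 (SE 0.21), Dnajc10, a disulfide reductase, 0.13 (SE 0.17) and Dnajc3, an inhibitor of the kinase PERK, -0.10 (SE 0.23). None of the 4 passed the test. Dnajc8, of splicing complexes, had 0.02 (SE 0.11) on its brightest probe set, one that the array design marks as shared within a sequence family, and 0.49 (SE 0.23) on another. Apart from Dnajb5, Dnajb13, Dnajc7, Dnajc1, Dnajc9 and Dnajc2, the tested J-domain genes had log2 changes of -0.27 (Dnajc5) to 0.28 (Dnajb9).

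Chaperonins were measured by 11 genes, all tested, of which 7 were lower and 4 higher in deprived arrays (median log2 change -0.08), and 0 had an unadjusted p under 0.05. The 9 genes of the cytosolic CCT ring (Tcp1 and the Cct genes) had a median of -0.08, with 6 lower and 3 higher and a range of -0.21 to 0.19. Cct3 read 637, 717 and 678 on the deprived and 767, 718 and 886 on the non-deprived arrays (log2 change -0.21, SE 0.13). The groups did not overlap, by a margin of about 1 unit, and its 2 other tested probe sets had -0.06 (SE 0.17) and 0.16 (SE 0.16). Cct6a read 689.7, 621 and 703 on the deprived and 741, 718 and 796 on the non-deprived arrays (log2 change -0.16, SE 0.12), also on a probe set shared within a sequence family. The other 7 genes of the ring had overlapping groups. Cct5 read 1782, 1808 and 1708 against 1839.8, 1577 and 1715 (deprived against non-deprived, log2 change 0.05, 95% interval -0.17 to 0.27). The log2 changes of the other 6 ran from -0.17 for Cct6b, a subunit known from testis, to 0.19 for Tcp1.

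Hspd1 and Hspe1 encode Hsp60 and Hsp10, the ring and the lid of the mitochondrial chaperonin. Hspd1 read 4513, 3304 and 5552 on the deprived and 3986, 3433 and 3468 on the non-deprived arrays. Deprived replicates 1 and 3 were the highest of the 6 and deprived replicate 2 the lowest, so the groups overlapped (log2 change 0.27, SE 0.16, adjusted p = 0.967). The log2 change was 0.47 without deprived replicate 2 and 0.09 without deprived replicate 3. Its other probe set had 0.37 (SE 0.18). Hspe1, which shares the printed promoter stretch with Hspd1, read 731, 772 and 819.9 on the deprived and 774, 884 and 886 on the non-deprived arrays (log2 change -0.13, SE 0.12). The estimates of both genes had opposite signs, and the difference between them was not tested.

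Of the 4 small heat shock protein genes on the array, 2 were bright enough to be tested. Hspb8, a partner of Bag3 in selective autophagy, had the highest log2 change among the 53 (0.30, SE 0.16, adjusted p = 0.967). It read 680.2, 481 and 668 on the deprived and 465, 492 and 503 on the non-deprived arrays, where deprived replicates 1 and 3 lay above all others and deprived replicate 2 among the non-deprived values. Hspb2, which lies beside the crystallin gene Cryab, read 534, 481 and 659 against 416, 793 and 599 (deprived against non-deprived, log2 change -0.07, SE 0.22).

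Hspb1, or Hsp27, the heat-inducible member of this family, was too dim to be tested, with 28.3, 52.7 and 34.1 on the deprived and 36.0, 151 and 118 on the non-deprived arrays. Deprived values lay at the low end and overlapped with non-deprived replicate 1. Hspb11, known from intraflagellar transport, was also untested (114, 180.5 and 193 on the deprived and 62.0, 49.4 and 135 on the non-deprived arrays). The file used here carries no detection calls, so none of these signals is shown to be above background.

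Bag proteins release the nucleotide of Hsp70 and link it to degradation or autophagy. The 3 tested genes had a median log2 change of -0.02. Bag1 read 787, 667 and 789.6 on the deprived and 857, 671 and 762 on the non-deprived arrays (log2 change -0.03, SE 0.14). Bag2, which restrains the ubiquitin ligase Stub1, read 1914, 1953 and 1735 against 1456, 2092 and 2220.0 (deprived against non-deprived, log2 change -0.02, SE 0.15), and 0.02 (SE 0.12) on its other tested probe set. Bag3, the inducible member, was untested at 69.7, 60.8 and 54.4 on the deprived and 133, 76.6 and 71.2 on the non-deprived arrays. These did not overlap, but all lay under the filter.

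Bag6, which guards newly made membrane proteins, gave different values on different probe sets. The brightest read 1053, 1381 and 1693 on the deprived and 1176, 1080.5 and 1152 on the non-deprived arrays (log2 change 0.25, SE 0.16). The next 2 had 0.14 (SE 0.15) and -0.01 (SE 0.14). The dimmest read 134, 136 and 139.7 on the deprived and 192, 249.9 and 194 on the non-deprived arrays, without overlap (log2 change -0.57, SE 0.26, adjusted p = 0.95). Hspbp1, another exchange factor of Hsp70 whose symbol matches the rule, read 1326, 1272 and 1249.7 on the deprived and 1337, 1323 and 1123 on the non-deprived arrays (log2 change 0.03, SE 0.11).

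**Figure D5:**
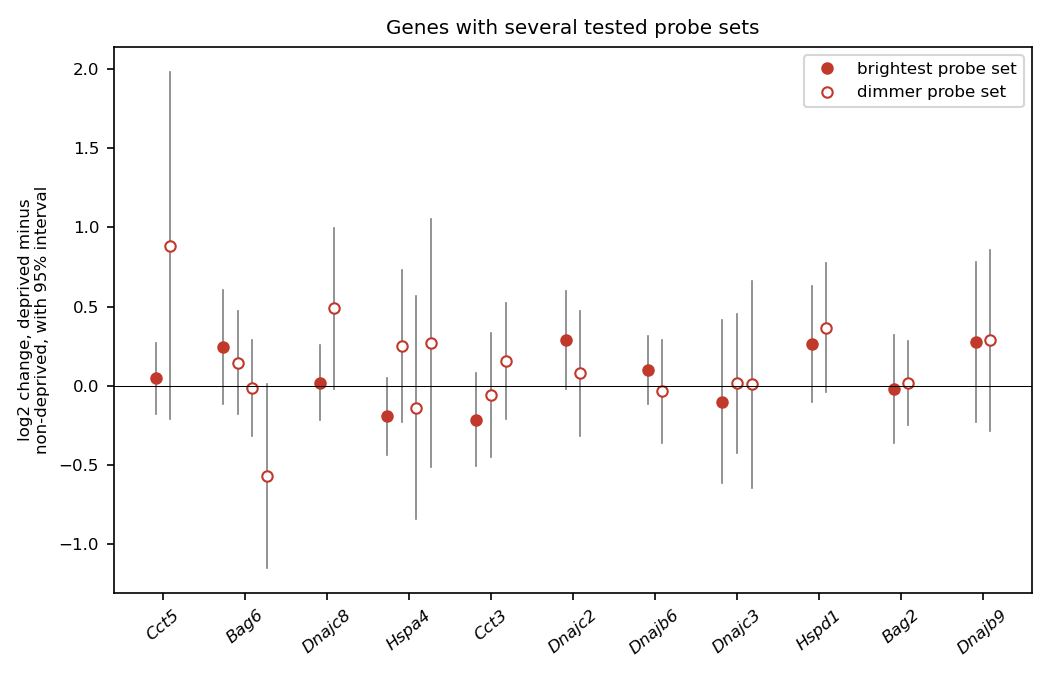
Log2 change (deprived minus non-deprived) with 95% interval for each tested probe set of the 11 chaperone genes that have several, ordered by the spread between their probe sets; filled points are the brightest probe set of a gene and open points the dimmer ones. Cct5 and Bag6 spread most, by 0.84 and 0.82, and Bag2 and Dnajb9 least, by 0.04 and 0.01. The dimmer probe set of Cct5 was tested only through the deprived arrays, where it was high.

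For 11 chaperone genes, several probe sets were tested, and their log2 changes differed by 0.01 to 0.84. Cct5 spread most, with 0.88 (SE 0.49) on a probe set with a mean signal of 173, against the value near 0 of its bright one. None of the 70 tested chaperone probe sets passed (limma). Those with an unadjusted p under 0.05 were the brightest probe sets of the 4 genes named above. By gene that is 7.55% of the 53, beside 5.18% of all tested genes, and no share by probe set was computed.

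The 9 untested genes were Hspa14, Hspa1l, Dnajb3, Dnajb8, Hsf2, Hsf4, Hspb1, Hspb11 and Bag3. Both heat shock factors on the array were among them. Hsf2 read 79.2, 85.4 and 110.4 on the deprived and 19.9, 119 and 43.5 on the non-deprived arrays, and Hsf4 183, 79.2 and 159 against 55.6, 76.7 and 184. The groups overlapped for both. Dnajb8, best known from testis, read 43.1, 85.2 and 54.9 on the deprived and 118, 162 and 96.7 on the non-deprived arrays, without overlap and largely under the filter. Just outside the filter lay Hspa1l, with a mean signal of 132, and just inside it Dnajc11, with 141.

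A list of 10 genes drawn up for heat induction (Hspa1a, Hspa1b, Hspa8, Dnajb1, Hspb1, Hsph1, Hsp90aa1, Hspe1, Hspd1 and Bag3) was also counted. It includes Hspa8, described above as constitutive, which was tested and lower (log2 change -0.04). Of the 8 tested, 7 were lower and 1 (Hspd1) higher in deprived arrays (median log2 change -0.07), and 0 had an unadjusted p under 0.05. Of all tested genes, 47.4% were lower, with a median of 0.01. Hspa1a and Hspa1b, both among the 7, may not be told apart by their probe sets, as said above. The median deviation of the 8 from their own means over all arrays was -0.03, -0.07 and 0.04 log2 units on the deprived arrays and 0.09, -0.05 and 0.03 on the non-deprived arrays. The groups overlapped.

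Further genes of protein folding were counted from lists chosen by function. Of the co-chaperones of Hsp70 and Hsp90, 11 were tested (Hspbp1, described above, is 1 of them), 6 lower and 5 higher in deprived arrays (median log2 change -0.04). The smallest p values were those of Unc45a, a myosin and Hsp90 cochaperone (-0.79, SE 0.34), and Ppid, a cyclophilin (0.14, SE 0.13). The 10 tested folding genes of the endoplasmic reticulum had a median of 0.03 (4 lower, 6 higher). Manf, a secreted stress-response protein, read 472 ± 39.7 in deprived and 647 ± 80.3 in non-deprived cortex (mean ± SD, n = 3 each; log2 change -0.44, SE 0.15, adjusted p = 0.95). P4hb, a protein disulfide isomerase, read 1865 ± 621 in deprived and 1132 ± 447 in non-deprived cortex (0.74, SE 0.28, adjusted p = 0.95). The groups overlapped for P4hb, and its value comes from 1 of 2 probe sets, with a suffix that marks shared or imperfect probes. The 6 tested genes of the unfolded protein response had a median of 0.04 (3 lower, 3 higher), with Atf4, its translation-controlled transcription factor, at -0.20 (SE 0.11) and Xbp1 at -0.19 (SE 0.13).

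Prefoldin, which hands actin and tubulin to the CCT ring, had a median of 0.00 over 4 tested genes (2 lower, 2 higher; Pfdn5 -0.18, SE 0.17, and Vbp1 0.11, SE 0.18). The crystallin genes Cryab (0.08, SE 0.26) and Cryaa (0.06, SE 0.41) were near 0. Mitochondrial proteostasis genes had a median of -0.21 over 8 tested genes, 7 lower and 1 higher, beside 47.4% lower of all tested genes. None of the 8 had an unadjusted p under 0.05 (limma). Their summed signals were 3748 to 4523 on the deprived and 4575 to 5009.7 on the non-deprived arrays. Tomm34, the brightest of the 8 with a mean signal of 1427, weighs most in these sums. Sums of the other folding lists overlapped between the groups. The genes with the smallest p in the mitochondrial list were the matrix proteases Clpp, at -0.24 (SE 0.12), and Lonp1, at -0.27 (SE 0.18). Of the mitochondrial chaperones described above, which are not in this list, Hspd1 (0.27) and Hspa9 (0.06) were higher and Hspe1 (-0.13) lower. Over the 6 lists 0 genes passed by limma. An unadjusted p under 0.05 was found for 1 of the 11 tested co-chaperones (Unc45a) and 2 of the 10 tested endoplasmic reticulum genes (Manf and P4hb). In the other lists it was found for 0, beside 5.18% of all tested genes.

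The arrays had median signals of 206.4 to 219.7 in deprived and 202.8 to 218.3 in non-deprived cortex. Ribosomal 18S RNA, on its 3′ probe set, gave 661 to 981 units on the 3 deprived arrays and 2689 on non-deprived replicate 3, beside 905 and 979 on the other non-deprived arrays. Without that array 0 chaperone genes passed and 1 had an unadjusted p under 0.05 (1.89%, beside 4.32% of all tested genes). All 7 neuronal and all 4 cortical marker genes on the array passed the filter. Of the 34 tested markers of neurons, cortex, astrocytes, oligodendrocytes, microglia, vessels and red blood cells, 0 passed the test (limma) and 1, the astrocyte gene Aldoc (-0.25, SE 0.10), had an unadjusted p under 0.05. Of the 6 tested astrocyte markers, 3 were lower and 3 higher in deprived arrays (median log2 change 0.04). Their summed signal was 12405 to 13913 on the deprived and 13928 to 14932 on the non-deprived arrays. Aldoc, the brightest of the 6 with a mean signal of 7870, weighs most in this sum. Sums of the other marker lists overlapped between the groups, and the part of cell composition in these values was not tested.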

How the data were processed

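Total RNA from visual cortex was measured on 6 one-colour Affymetrix arrays, 3 deprived and 3 non-deprived. The deposited values are intensity signals on a linear scale, 1 per probe set, made by the authors with MAS5 per the submitters' processing notes. Their scaling shows in the values: the 2% trimmed mean is 500.3 on every array. Read depth does not apply, and the number of arrays limits the precision.

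The table holds 12488 probe sets. The 66 controls were left out. GEO's platform annotation gives 10855 probe sets 1 gene symbol, 396 several and 1237 none, and no gene was named from a probe set with several. Tests covered the brightest 60% of probe sets (7453, for 5653 genes), ranked by their mean over the 6 arrays, which had to reach 134.7. Signals were taken as log2(signal + 16), which understates changes of dim probe sets, and fitted by group in limma (version 3.58.1, R 4.3.3; lmFit, and eBayes with its prior variance following mean signal), with Benjamini-Hochberg adjustment over all 7453 and a threshold of 0.05. The fit was tested on simulated data. A gene is given by its brightest probe set.

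Chaperone symbols were matched by a pattern, and all 62 had the same symbol in RefSeq by Entrez ID. Among the 91 probe sets, 26 carry suffixes that mark shared or imperfect probes. Besides those marked above, they include the brightest probe sets of Bag2, Bag6, Cct3, Dnajc3, Dnajc15, Hspb2 and Hspbp1, and the second probe set of Dnajc8. Probe sets shared by Dnajc19 and a pseudogene were left out. By the rule for named genes, values on every array are given for the 3 tested members of each family with the smallest p. They are also given for the 10 genes of the heat induction list and for the 3 genes whose tested probe sets disagree most. Other members are given by range, counts or log2 change. In each other folding list the 2 genes with the smallest p are named. The members and lists were chosen with earlier results of these data known, so no list is independent support. Alternatives changed the normalization, pseudocount, filter, probe set rule, trend, threshold and replicate block, or left out each array.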

Additional observations from a re-analysis of the deposited data

How the results depend on the processing

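The count of 0 chaperone genes past an adjusted p of 0.05 held in all 15 alternatives, and also at a threshold of 0.10; between 1 and 7 had an unadjusted p under 0.05 (1.89% to 13.2%, beside 4.26% to 7.85% of all tested genes in the same fits). The median log2 change of the tested chaperones ranged from -0.05 to 0.00. The count of probe sets past the threshold, 13 over the whole table, ranged from 7 to 10 when 1 array was left out. Leaving out deprived replicate 3 or non-deprived replicate 3 gave 8, and leaving out non-deprived replicate 2 gave 7. With a replicate block, 10 probe sets and 0 chaperones passed. Deviations of samples from their group means, over the tested probe sets, correlated at 0.003, 0.049 and -0.020 for same-numbered samples. For differently numbered samples they correlated at -0.098 to 0.102, so the numbers were not taken as pairs. Of the 25 named tested genes, 12 kept 1 sign in all fits. Averaging the probe sets of a gene gave log2 changes of -0.05 for Bag6 and 0.05 for Hspa4, both of opposite sign to their brightest probe set, and -0.04 for Cct3, 0.47 for Cct5 and 0.26 for Dnajc8, against -0.21, 0.05 and 0.02 on the brightest. The average of Cct5 takes in its dim probe set, which was tested only through the arrays where it was high. No alternative brought a named chaperone past the threshold. Signals under the filter are not shown to be above background, and with 3 arrays per group the 95% interval lay within a 1.5-fold change for 35 of the 53 tested chaperones only.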

Other observations

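Deprived replicate 2 was the lowest of the 6 arrays for 13 of the 53 tested chaperones (24.5%, beside 17.0% of all tested genes), and deprived replicate 1 for 12 (22.6%, beside 14.9%), whereas deprived replicate 3 was the lowest for 4 (7.55%, beside 14.3%). Each non-deprived array was the lowest for 8 (15.1%, beside 16.2% to 20.8%). Non-deprived replicate 3 was the highest for 15 (28.3%, beside 17.8%). Deprived replicate 2 stood below both other deprived arrays for Hspa1a, Hspd1 and Hspb8, and also for 2 J-domain genes of the endoplasmic reticulum. Dnajb9 read 497.4, 277.8 and 466.5 on the deprived and 306, 338 and 344 on the non-deprived arrays. Dnajc10 read 1031, 730.3 and 1153 on the deprived and 927, 864 and 832 on the non-deprived arrays. For Dnajb5, in contrast, the same array was the highest of the 3. These genes were picked after their values were seen, and no test was made of the pattern. Without deprived replicate 2, 7 of the 53 chaperones had an unadjusted p under 0.05 (13.2%, beside 5.41% of all tested genes in the same fit), 0 passed after adjustment (limma), and 4 named genes changed sign.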
